A study of Mus musculus with 4 samples.

Results

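The cells described here are posterior second heart field progenitors of the mouse embryo, 727 of the 35228 cell barcodes that passed the quality limits (at least 3000 genes and at most 10% mitochondrial UMIs, the unique molecular identifiers that count captured transcripts). They were chosen by their own RNA. A cell was taken if it held a UMI of at least 4 of the 6 markers Tbx5, Foxf1, Aldh1a2, Osr1, Gata4 and Wnt2. In addition, its summed UMIs of the muscle genes Tnnt2, Myh7, Myl7, Myl4 and Actc1 had to be under 0.25% of its total, and it had to hold no UMI of the epithelial gene Epcam or the endothelial gene Cdh5. Single GFP-positive cells of the Tbx1Cre lineage had been sorted from the pharyngeal region and heart of embryos at E9.5, labelled as outbred SwissWebster and, by the methods, from mice of a mixed C57BL/6 and Swiss Webster background, and profiled by droplet-based 3′ RNA sequencing. In the controls (cHet) the embryos carried Tbx1Cre/+, GFP F/+ and 1 floxed copy of Kmt2d (Kmt2d F/+), and in the conditional knockout (cKO) both copies were floxed (Kmt2d F/F). Kmt2d encodes an enzyme that methylates histone H3 at enhancers. Cre is active only where Tbx1 is or was expressed and is inserted into Tbx1, so both genotypes had 1 working Tbx1 allele and no group carried 2 intact Kmt2d alleles in these cells. Each genotype had 2 libraries. Each library was a pool of 4 embryos in Rep1, made with the Next GEM kit, or of 3 embryos in Rep2, made with the GEM-X kit, so all comparisons of genotype rest on 2 libraries against 2 and measure the spread between these pools.

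The second heart field is a pool of progenitors behind the early heart tube that adds cells to both ends of it. Its posterior part feeds the venous pole, which gives rise to the atria, the sinus region and the atrial septum, and borders the mesenchyme of the foregut and lung bud. It is known for retinoic acid made by Aldh1a2, for signalling by hedgehog ligands from the foregut endoderm, and for transcription factors such as Tbx5, Osr1 and the GATA family, whereas the anterior part feeds the outflow tract and expresses Tbx1, Fgf8 and Fgf10.

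Promoters are shown for a pair of genes on which results below rest. The noncoding RNA Fendrr, among the genes that set these cells apart most, starts 1276 bases from the start of the marker Foxf1 on chromosome 8, and Rarb, a retinoic acid receptor, separated cells within the population. The 250 bases before each start were taken from RefSeq on GRCm38.p6 (Fendrr chr8:121083111-121083360 and Rarb chr14:16575477-16575726, both on the minus strand), and the sequences read 5′ to 3′ towards the gene. The Rarb start used lies inside the gene as annotated by GENCODE (chr14:16430839-16819156). The counts do not show from which start its RNA came. Capitals mark the only match in each to any of 4 motifs searched on both strands.
Fendrr: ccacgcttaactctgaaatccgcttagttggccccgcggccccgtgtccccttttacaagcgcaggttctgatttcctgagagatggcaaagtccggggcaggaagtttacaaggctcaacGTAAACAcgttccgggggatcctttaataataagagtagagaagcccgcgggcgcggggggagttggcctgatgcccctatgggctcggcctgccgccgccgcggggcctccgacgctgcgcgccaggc
Rarb: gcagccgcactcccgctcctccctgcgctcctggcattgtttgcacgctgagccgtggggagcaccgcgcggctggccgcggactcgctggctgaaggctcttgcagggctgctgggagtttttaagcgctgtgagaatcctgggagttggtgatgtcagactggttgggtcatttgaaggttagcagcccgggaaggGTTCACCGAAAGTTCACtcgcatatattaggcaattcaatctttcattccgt
In Fendrr the match was the forkhead motif TGTTTAC, read on the other strand as GTAAACA, 129 bases before the start. It occurs in 3.1711% of the 32544 windows of the same length. In Rarb the match was the half-site GTTCAC repeated after a gap of 5 bases, a direct repeat that is a binding sequence of retinoic acid receptors, 52 bases before the start. This motif was searched with the element of Rarb already known, and it was found in 2 of the windows (0.0061455%). The GATA motif AGATAA (9.968% of windows) and the T-box motif GGTGTGA (3.3309%) matched neither promoter, and none of the 4 matched those of Wnt2 or Aldh1a2, the markers with a promoter in the table. A match is a description of the letters and not a bound site.

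The libraries gave 120 such cells in cHet Rep1, 98 in cKO Rep1, 246 in cHet Rep2 and 263 in cKO Rep2, the order in which 4 values are given throughout. The cells had medians of 19058 to 26033 UMIs, against 17386 to 23506.5 in the other cells, and medians of 5354 to 5918 genes. Between the libraries of the same replicate, 87 (Rep1) and 71 (Rep2) barcodes were shared, none by cells that met the rule in both. A doublet score called 35 of the 727 cells, or 6.67%, 9.18%, 2.85% and 4.18% by library. Of all cells it called 5.45%, 5.63%, 4.03% and 5.06%, shares set by the rate expected for each kit. Of the other cell types that the sort could hold, the summed level of 11 blood genes was 4.59 to 14.3 CPM (UMIs of a gene scaled to a common total, after summing the cells of a library) against 90.6 to 883 in the other cells, with 3 of the genes at 0 in all 4 libraries. The 12 endothelial genes summed to 38.3 to 50.2 CPM against 221 to 372, with 1 at 0, although Cdh5 had been used in the rule. The 12 cardiac muscle genes of this check, none of which the rule used, summed to 251, 219, 348 and 530 CPM. In the other cells they summed to 320, 132, 561 and 487 CPM. The posterior sums were thus lower in both cHet libraries and higher in both cKO libraries. The calcium channel gene Ryr2 alone gave 119, 152, 216 and 324 CPM of the posterior sums, against 26.3, 13.7, 38.1 and 36.2 CPM in the other cells. The 13 neural genes summed to 61.3 CPM in cKO Rep1 and to 17.7 to 26.1 CPM in the other libraries, against 111 to 162 in the other cells. The 12 genes of facial mesenchyme summed to 433 to 508 CPM against 766 to 984. Like the cardiac muscle sums, those of epithelial and branchiomeric muscle genes were not lower throughout. The 13 epithelial genes summed to 88.5, 123, 98.5 and 101 CPM against 140, 88.3, 127 and 153 in the other cells, higher in cKO Rep1 alone, although Epcam had been used in the rule. Of these genes, only the keratins Krt8 (26.7, 36.2, 26.5 and 36.9 CPM) and Krt18 (56.5, 79.6, 68.5 and 61.2 CPM) exceeded 10 CPM in any library. The 8 genes of branchiomeric muscle summed to 94.2, 77.5, 111 and 130 CPM against 57.5, 58.0, 108 and 131, higher in 3 of the 4 libraries.

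The markers that chose the cells were unevenly shared among them. Over all 727 cells, Foxf1, a forkhead factor of lateral and gut mesoderm, had a UMI in 681 (93.7%) and Osr1, a zinc finger factor of the atrial septum progenitors, in 668 (91.9%). Tbx5, the T-box factor of the atria and inflow tract, was found in 653 (89.8%) and Aldh1a2, the main enzyme of retinoic acid synthesis in the embryo, in 634 (87.2%). Wnt2, a ligand of the venous pole and lung mesenchyme, was present in 485 cells (66.7%) and Gata4, a zinc finger factor of heart progenitors, in 362 (49.8%). All 6 markers were found in 177 cells (24.3%), 5 in 221 (30.4%) and exactly 4 in 329 (45.3%). Among endothelial cells, which should lack Tbx5 and Wnt2, the share with a UMI was 0% to 1.24% for Tbx5 and 0.369% to 0.929% for Wnt2. Gata4 had a UMI in 2.95% to 7.59% of endothelial cells, a share above that of all other cells (2.54% to 3.34%) in each library. With every cell thinned to 10000 UMIs, Tbx5 was still found in 62.4% to 77.2% of the posterior cells against 1.20% to 1.51% of the other cells, and Gata4 in 30.8% to 47.6% against 1.61% to 2.69%. Just outside the rule lay 98, 79, 177 and 213 cells that met the other limits with 3 markers. At the muscle limit, the highest cell inside had between 0.134% and 0.246% muscle UMIs and the lowest outside between 0.259% and 0.424%, depending on the library.

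Some pairs of markers were found together at close to the rate their single shares give, such as Tbx5 and Foxf1 (79.2%, 81.6%, 87.4% and 84.8% of the cells against products of 78.8%, 81.5%, 87.3% and 84.7%). The 2 pairs with the widest gaps held Gata4. Gata4 and Wnt2 were both present in 35.0%, 35.7%, 41.9% and 50.2% of the cells, above the products of the single shares (26.0%, 28.9%, 31.9% and 39.9%) in all 4 libraries. Aldh1a2 and Gata4 were both present in 29.2%, 28.6%, 40.7% and 43.3%, below the products of 36.1%, 36.3%, 44.4% and 48.5%. Since a cell needed 4 markers, lacking one makes each of the others more likely among the cells chosen, so these shares describe the population and were not tested.

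The label was checked against 13 genes known in the posterior field or its neighbours that the rule did not use. Of these, 11 were higher than in the other cells in all 4 libraries. Ptch1, the hedgehog receptor and a target of its own pathway, stood at 319, 283, 592 and 494 CPM against 117 to 204 in the other cells. Hhip, the gene of hedgehog interacting protein, was at 51.4, 46.5, 93.4 and 110 CPM against 11.2 to 21.4. The effector Gli1 was at 13.1, 17.2, 26.0 and 21.9 CPM against 6.08 to 9.88. All 3 hedgehog genes were above the other cells without overlap. The factors Gata5 (37.2 to 115 CPM against 3.56 to 10.0) and Gata6 (97.5 to 220 CPM against 12.9 to 27.6) differed more, and Isl1, Hand1, Hand2, Foxf2, Nr2f2 and Hoxb1 were higher in every library by smaller margins. For comparison, 1422 anterior second heart field cells were taken from the same libraries, those with at least 4 of Isl1, Tbx1, Fgf8, Fgf10, Nkx2-5 and Rgs5 and no more than 2 of the posterior markers. Gata5, Gata6, Ptch1, Hhip, Gli1, Foxf2, Nr2f2 and Hoxb1 were above the anterior cells in all 4 libraries. Hand2 was below them in all 4 (33.4 to 50.8 CPM against 60.4 to 83.8) and Hand1 above them in 2 (10.3 to 13.1 CPM against 4.67 to 25.6). Isl1, which helped to choose the anterior cells, was below them in all 4 (113 to 232 CPM against 183 to 377). Against the label, Tbx18, a factor of the sinus horns and proepicardium, and the nuclear receptor Nr2f1 were lower than in the other cells in all 4 libraries (23.1 CPM against 38.7 and 131 CPM against 198 in cKO Rep1, for example), though above the anterior cells in all 4 (15.6 to 34.3 CPM against 8.06 to 12.2 for Tbx18 and 75.4 to 145 against 50.7 to 95.7 for Nr2f1). The other cells of the sort hold mesenchyme of many kinds.

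**Figure D1:**
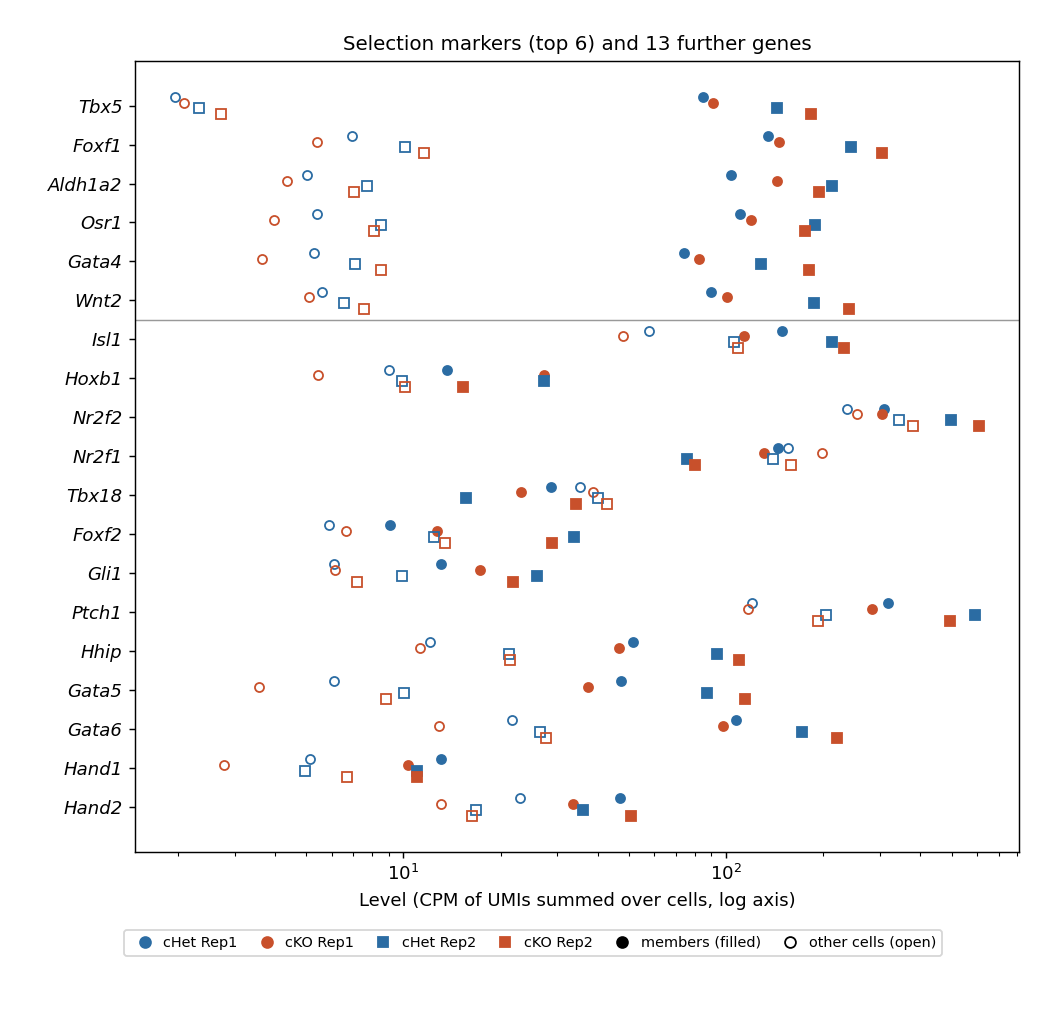
Summed level (CPM, log axis) of the 6 markers that chose the cells (above the line) and of 13 genes that did not (below it), in posterior second heart field cells (filled) and all other cells (open) of each library. The filled points lie to the right of the open points of the same library for 11 of the 13 genes below the line and to the left for Nr2f1 and Tbx18.

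Beyond these genes, 92 of 9156 genes with at least 10 CPM (1%) were more than 2-fold higher than in the other cells in all 4 libraries and 132 (1.44%) were more than 2-fold lower, on the log2(CPM + 5) scale. These differences follow from choosing cells by their RNA and carry no test. Rspo2, a secreted amplifier of Wnt signals, was at 250, 214, 239 and 366 CPM against 9.59 to 11.6 in the other cells. It was found in 54.2%, 61.2%, 57.7% and 66.5% of the cells, so it did not rest on a few. Of the ligands, Wnt4 was at 48.6, 70.0, 79.8 and 58.4 CPM against 1.94 to 3.51, the chemokine Cxcl13 at 39.2, 62.4, 51.1 and 50.0 CPM against 1.30 to 1.69, and the apelin receptor ligand Apela at 24.0, 24.5, 29.7 and 34.9 CPM against 1.08 to 2.31. Fendrr, the neighbour of Foxf1 whose promoter is printed above, was at 49.9, 42.7, 73.0 and 67.1 CPM against 1.11 to 2.29. All 14 genes named for this comparison were above the other cells in each library, by log2 differences of at least 2.07 (Gata6), and they also include the secreted Tafa1, the potassium channel Kcnh5, the transcription factors Bcl11a and Creb5, the membrane protein Tmem158 and the noncoding D030025E07Rik and Gm49708.

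The 10 genes lowest relative to the other cells were of several kinds. Emcn, a sialomucin of endothelium, was at 0.304, 0.345, 0.510 and 1.00 CPM against 39.1 to 64.1, and Ldb2, Rhoj and Ptprm were also among them. The embryonic globin Hbb-y was at 6.99, 2.07, 0.510 and 2.61 CPM against 38.1 to 399, with Hbb-bh1 and Hba-x beside it. The rest are known from pharyngeal and cranial mesenchyme. Ebf2 was at 37.1, 52.7, 10.5 and 14.1 CPM against 225 to 360, the Wnt5a receptor Ror1 at 49.5, 64.8, 41.1 and 46.4 CPM against 276 to 441, and follistatin (Fst) at 19.5, 17.2, 5.61 and 9.84 CPM against 102 to 125. Emcn did not separate the posterior from the anterior cells (0.603 to 1.26 CPM), whereas Ebf2 was lower than in them (116, 141, 186 and 175 CPM) in every library.

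**Figure D2:**
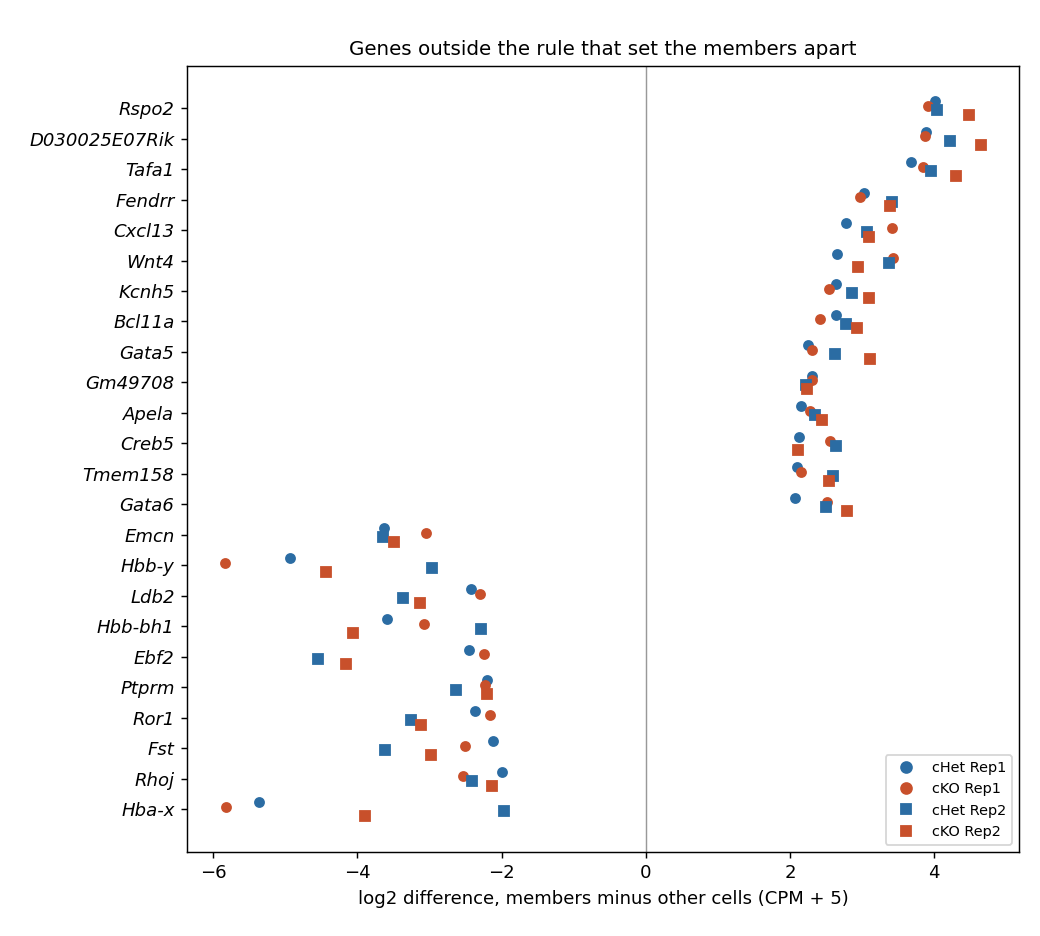
Difference in level between posterior second heart field cells and all other cells, on the log2(CPM + 5) scale, for 14 genes outside the rule that were highest and the 10 that were lowest, with 1 point per library. The smallest difference of any library among the upper 14 genes was 2.07, and all 4 libraries lie on the same side of 0 for every gene.

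Within the population, cells with and without Gata4, the marker found in the fewest of them, differed in both directions. There were 52, 42, 119 and 149 cells with a Gata4 UMI and 68, 56, 127 and 114 without. Their median UMIs were close in each library (24677.5 against 23794.5, 26600.5 against 25733.5, 23360 against 23613, and 18431 against 19545). A cell without Gata4 had to hold 4 of the other 5 markers, which the rule alone requires. Of 8979 genes, 78 (0.869%) were over 2-fold higher with Gata4 in all 4 libraries and 5 (0.0557%) were over 2-fold higher without. Zfpm2, whose protein FOG2 binds GATA factors, was at 342, 350, 374 and 687 CPM with Gata4 and at 24.0, 16.4, 14.5 and 33.6 CPM without. Tbx20, a T-box factor of heart muscle precursors, was at 79.7, 82.2, 112 and 117 CPM against 0, 3.03, 2.58 and 3.17 CPM. The smooth and heart muscle coactivator Myocd was at 63.3, 50.3, 143 and 170 CPM against 3.51, 3.03, 3.55 and 18.1 CPM. In these 3 genes every value with Gata4 exceeded every value without.

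In the list of atrial and venous pole muscle, 9 of the 9 genes with at least 10 CPM were higher with Gata4 in all 4 libraries, 4 of them over 2-fold, against 1717 of all 8979 genes (19.1%). The calcium release channel Ryr2 was at 218, 270, 395 and 494 CPM with Gata4 against 26.3, 61.3, 56.2 and 110 CPM without, and the factor Mef2c at 224, 154, 225 and 318 CPM against 51.5, 37.6, 46.5 and 46.7 CPM. Gata5, Gata6, Nkx2-5, Vsnl1, the Wnt inhibitor Sfrp5 and the potassium channel gene Kcnq3 belonged to the 78 as well. Rspo2 did too, at 428, 314, 395 and 519 CPM against 85.4, 138, 98.7 and 173 CPM. Cells over the muscle limit had been removed, and of the 5 muscle genes used for that limit Tnnt2 (39.9, 24.7, 22.2 and 46.1 CPM against 5.26, 1.21, 1.94 and 4.08 CPM), Myl7 and Myl4 were higher with Gata4 in all 4 libraries. Actc1 was lower with it in cKO Rep1 (7.98 against 11.5 CPM), and Myh7 was at 11.4 against 2.34 CPM in cHet Rep1 and at most at 1.81 CPM on either side in the other 3 libraries. Isl1 and Bmp4, a ligand of heart progenitors, were higher with Gata4 in all 4 libraries too (Bmp4 at 153, 149, 172 and 173 CPM against 70.8, 72.8, 67.1 and 73.0 CPM).

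The 5 genes over 2-fold higher without Gata4 were Wnt4, Cldn11, Nrg1, Rarb and Hoxb1. Wnt4 was at 84.2, 115, 140 and 114 CPM without Gata4 against 10.1, 10.4, 12.9 and 14.1 CPM with it. The tight junction gene Cldn11 was at 19.3, 24.3, 46.5 and 33.1 CPM against 4.43, 0.798, 7.17 and 2.16 CPM. Neuregulin 1 (Nrg1), a ligand of ERBB receptors, was at 207, 287, 312 and 357 CPM against 97.5, 103, 90.4 and 79.3 CPM. Rarb, with the direct repeat shown above before an internal start, was at 121, 125, 187 and 147 CPM without Gata4 against 42.4, 45.5, 75.7 and 67.0 CPM with it. Hoxb1, a homeobox factor of the posterior field, was at 21.6, 39.4, 42.9 and 24.5 CPM against 5.06, 11.2, 10.0 and 7.93 CPM. The retinoic acid list did not go 1 way as a whole, with 4 of its 12 genes of at least 10 CPM lower and 3 higher with Gata4 in all 4 libraries, against 14.7% and 19.1% of all genes. Fendrr and Meis2 were lower with Gata4 in all 4 libraries by less than 2-fold in at least 1, and Ptch1 did not separate the groups (log2 differences of -0.61 to 0.02). Of the markers, Aldh1a2 was at 147, 180, 268 and 269 CPM without Gata4 against 57.6, 97.3, 153 and 136 CPM with it, and Foxf1 was lower with Gata4 by 0.30 to 0.60 on the log2 scale. Wnt2 went the other way, at 151, 168, 335 and 383 CPM with Gata4 against 32.8, 49.8, 54.9 and 59.8 CPM without, and Tbx5 (0.45 to 0.83 on the log2 scale) and Osr1 (0.00 to 0.51) were higher with it as well. The rule requires at least 4 of the other markers in a cell without Gata4 and at least 3 in a cell with it, so the levels of markers are given as values only.

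**Figure D3:**
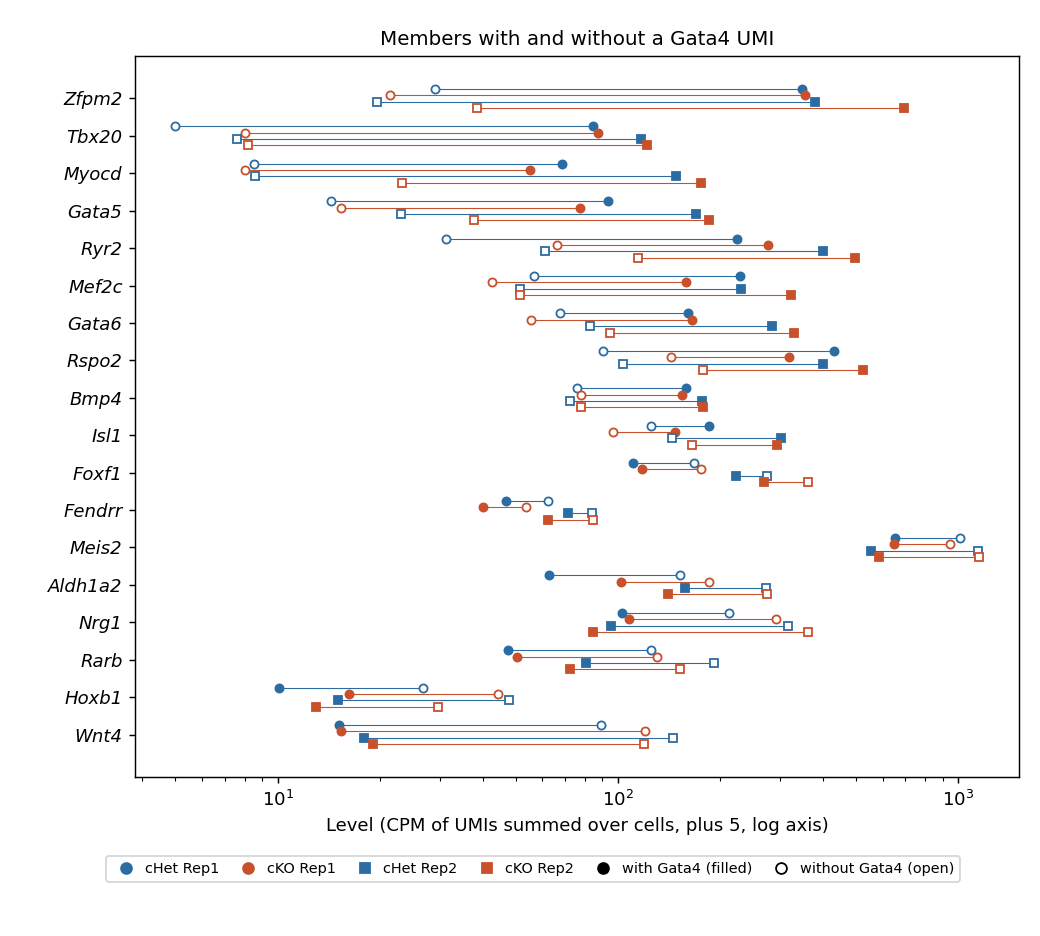
Level (CPM + 5, log axis) in posterior second heart field cells with a Gata4 UMI (filled) and without one (open), joined by a line for each of the 4 libraries. Genes from Zfpm2 down to Isl1 were higher with Gata4 and those from Foxf1 down to Wnt4 were higher without it, in every library.

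To see whether loss of the second Kmt2d copy changed how many of these cells were found, their share of all cells that passed the limits was compared. It was 1.92% (exact binomial 95% interval 1.60% to 2.30%) in cHet Rep1, 1.47% (1.20% to 1.79%) in cKO Rep1, 2.52% (2.22% to 2.86%) in cHet Rep2 and 2.09% (1.85% to 2.35%) in cKO Rep2. The intervals cover counting error only. The share was lower in cKO in both replicates, with differences of -0.452 points in Rep1 and -0.435 points in Rep2, and cKO Rep2 was above cHet Rep1, so the genotypes overlapped. The mean difference of -0.444 points had an exact two-sided permutation p of 0.667, from a test that does not pair the libraries by replicate. With 2 libraries against 2 it cannot give less than 0.333. Over all deposited barcodes the mean difference was 0.216 points in the other direction (0.729 in Rep1 and -0.297 in Rep2), with 37093 barcodes deposited for cHet Rep1 and 9307 for cKO Rep1.

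The share was then split by sex, since pools of 3 or 4 embryos can differ in it. Cells were called by Xist, the RNA of the inactive X chromosome, and by 4 genes of the Y chromosome. Among the posterior cells called one way, 84.9%, 58.0%, 81.1% and 57.6% were Xist-only, against 75.4%, 67.8%, 66.8% and 59.6% of all cells. Both kinds of RNA, with at least 2 UMIs of Xist, were found in 20.8%, 16.3%, 6.91% and 3.04% of the posterior cells. Among all cells the shares were 11.3%, 9.05%, 7.27% and 5.29%, so that the posterior cells were above all cells in Rep1 and below them in Rep2. In Xist-only cells the posterior share was 2.01%, 1.16%, 3.09% and 2.06%, a mean difference of -0.938 points between cKO and cHet (exact permutation p = 0.667), with cKO Rep2 above cHet Rep1. In Y-only cells it was 1.09%, 1.76%, 1.45% and 2.24%, a difference of 0.730 points in the opposite direction (exact permutation p = 0.333, the smallest possible). The Y-only posterior cells numbered 14, 34, 43 and 106. The part of sex in the results below was not tested beyond the values given.

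**Figure D4:**
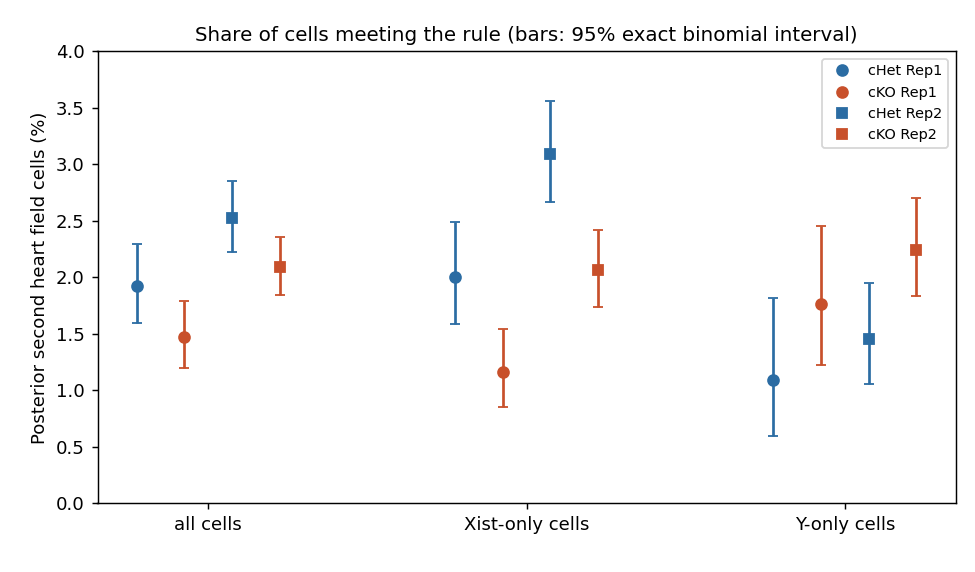
Posterior second heart field cells as a percentage of the cells that passed the limits, with exact binomial 95% intervals. Shown are all cells, Xist-only cells and Y-only cells, the last with fewer than 2 Xist UMIs. The cKO points are lower than the cHet points of the same replicate in all cells and in Xist-only cells and higher in Y-only cells.

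The genotypes were compared gene by gene on the UMIs summed over the posterior cells of each library, from 2901539 to 5886753 UMIs. With edgeR's quasi-likelihood test and Benjamini-Hochberg adjustment, 4 of 11807 genes were higher in cKO (0.0339%) and 0 were lower (0%). Before adjustment, 266 genes (2.25%) were higher and 183 (1.55%) lower at p under 0.05, or 449 (3.80%) in either direction. Most genes lay close to no change, with 79.1% within 0.25 on the log2 scale. Kmt2d itself was at 20.4, 16.2, 27.2 and 24.1 CPM (log2 fold change -0.23 ± 0.18 SE), but counts of 3′ ends do not show whether the floxed part was removed and so check nothing.

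Alcam, a cell adhesion molecule of the immunoglobulin family (chr16:52248996-52454074 on GRCm38), was at 41.9 CPM in cHet Rep1, 114 in cKO Rep1, 51.3 in cHet Rep2 and 102 in cKO Rep2. Both cKO libraries were above both cHet libraries, and the log2 fold change was 1.19 ± 0.13 SE with an edgeR adjusted p of 0.00444. Its UMIs were unevenly spread. A UMI was found in 24.2%, 33.7%, 21.1% and 31.2% of the cells, and the single highest cell held 36 of 138, 94 of 330, 146 of 302 and 46 of 508 UMIs. Without the 3 highest cells of each library, Alcam was at 22.7, 66.9, 16.6 and 78.7 CPM. In Xist-only cells Alcam was at 11.4, 82.8, 22.2 and 101 CPM (log2 fold change 2.39, edgeR adjusted p = 2.43e-05). In Y-only cells it was at 42.9, 75.6, 141 and 74.2 CPM, higher in cKO in Rep1 and lower in Rep2 (log2 fold change -0.46, edgeR adjusted p = 0.755). The Y-only level of cHet Rep2 came from 154 UMIs, and the single highest cell held 146 of them. The direction in Rep2 therefore rests on that cell. In posterior cells with Gata4, Alcam was at 76.6, 136, 95.1 and 164 CPM, against 9.94, 97.1, 11.9 and 24.5 CPM in those without. The neural genes that summed higher in cKO Rep1 include Tubb3 (8.81, 31.7, 12.1 and 11.8 CPM). The part of the neural genes and of the Gata4 share in the level of Alcam was not tested.

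Wfdc2, a secreted protease inhibitor best known from epithelia (chr2:164562413-164568510), was at 7.30, 20.7, 4.59 and 27.5 CPM, without overlap between the genotypes. Its log2 fold change was 2.12 ± 0.27 SE (edgeR adjusted p = 0.0147). The sums of the epithelial genes, given above and made up mostly of Krt8 and Krt18, were higher in cKO in both replicates. In cKO Rep1 they were above those of the other cells. Krt18 itself was lower in cKO in Rep2. The part of these genes was not tested. In Xist-only cells Wfdc2 was at 3.11, 9.46, 2.11 and 46.9 CPM and in Y-only cells at 20.03, 22.6, 14.7 and 3.49 CPM, where cKO was close to cHet in Rep1 and below it in Rep2. The Xist-only levels rest on 6, 12, 9 and 127 UMIs (edgeR adjusted p = 0.00621). The Y-only levels rest on 7, 20, 16 and 7 UMIs (edgeR adjusted p = 0.929). The other called genes lie on the Y chromosome. Eif2s3y was at 13.1, 31.4, 15.5 and 37.5 CPM (log2 fold change 1.27, edgeR adjusted p = 0.0158) and Uty at 17.6, 46.2, 24.1 and 48.0 CPM (1.15, edgeR adjusted p = 0.0158). Within Y-only cells the differences were small. There Eif2s3y was at 65.8, 86.9, 78.0 and 86.2 CPM (log2 fold change 0.22) and Uty at 65.8, 112, 113 and 114 CPM (0.23). Since Y genes chose those cells, these are given as values only. Xist was at 570, 399, 547 and 428 CPM, lower in both cKO libraries without passing the test (log2 fold change -0.43, edgeR adjusted p = 0.142). The share of Xist-only cells, given above, was lower in both cKO libraries as well. Without the replicate in the fit 0 genes were called (36 at p under 0.05 before adjustment), and likewise with any 1 library left out, where 3 libraries leave no room for that term. DESeq2 with the replicate called Alcam alone. When the 35 cells called as doublets were left out, 38 genes were higher and 16 lower, Alcam, Wfdc2, Eif2s3y and Uty among the former. In cells with at least 5 markers Alcam no longer passed (log2 fold change 0.91).

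The genes next in rank by p did not pass. Those higher in cKO were the protocadherin Pcdh17, the potassium channel Kcnh7, Ryr2, Barx1, the Y gene Kdm5d and the alpha catenin Ctnna2. Kcnh7 was at 17.9, 85.5, 39.9 and 67.5 CPM (log2 fold change 1.33 ± 0.23 SE) and Ryr2 at 119, 152, 216 and 324 CPM (0.49 ± 0.09 SE). In cKO Rep1, 3 cells held 176 of the 248 Kcnh7 UMIs and 72 of the 78 Barx1 UMIs. Without the 3 highest cells of each library, Kcnh7 was at 10.5, 25.7, 17.4 and 48.4 CPM and Barx1 at 1.60, 2.14, 2.92 and 3.86 CPM. Ryr2 overlapped between the genotypes because Rep2 was higher than Rep1, while within each replicate cKO was above cHet. Those lower in cKO were Smoc1, Xist, Thsd4, Pcdh11x, Cpq, Dab1, Tbx1, Fgf13, Fgf10 and the histone chaperone Asf1b. Smoc1, a secreted antagonist of BMP signals, was at 55.0, 27.9, 50.1 and 29.7 CPM, without overlap (log2 fold change -0.85 ± 0.14 SE, edgeR adjusted p = 0.0983). Tbx1, of which 1 copy is lost in both genotypes, was at 53.2, 26.9, 25.5 and 18.7 CPM (-0.71 ± 0.17 SE, edgeR adjusted p = 0.479), and cKO Rep1 lay above cHet Rep2.

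**Figure D5:**
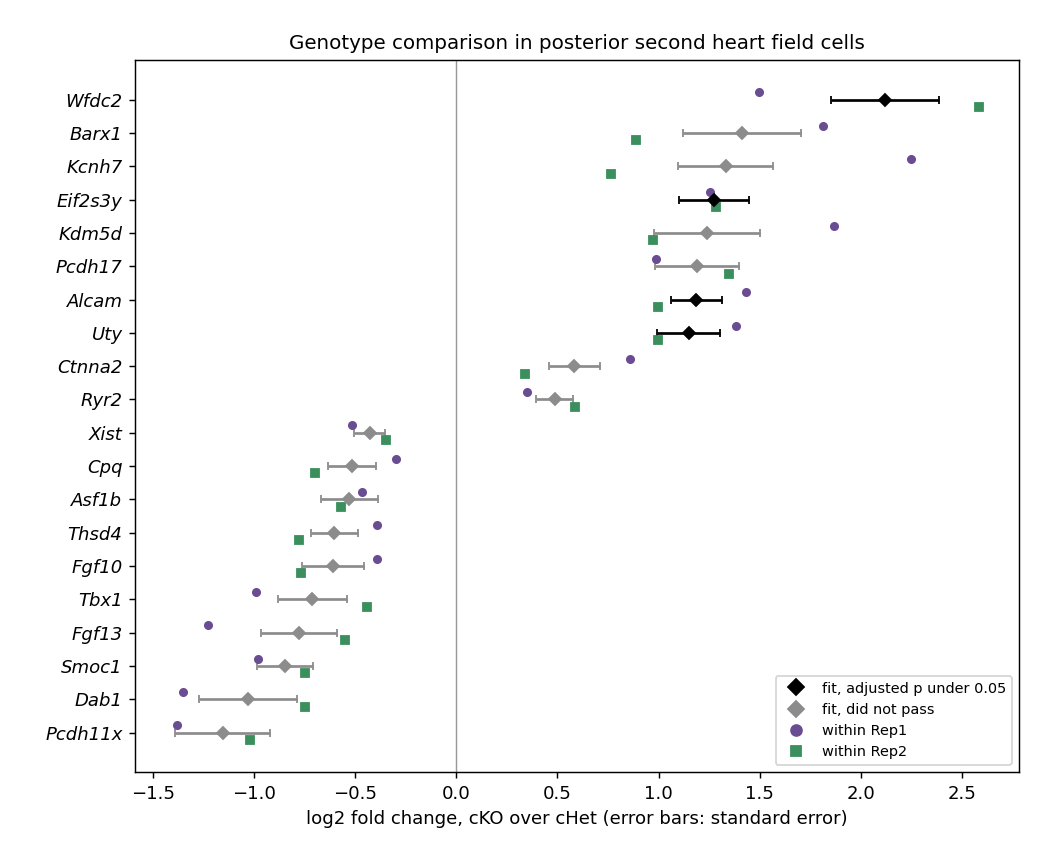
Log2 fold change of cKO over cHet in posterior second heart field cells for the 20 genes named by rule, with the fitted value (diamond, bars are the standard error) and the difference within Rep1 (circle) and Rep2 (square). The 4 black diamonds passed the test, and both replicates lie on the same side of 0 for all 20 genes because the rule required it.

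By pathway, 1 list gene outside the sex chromosomes passed, Alcam in the adhesion list, so lists are described by how their genes lay, beside a median log2 fold change of 0.00 over all genes. Of all genes, 49.0% were lower in cKO, 24.0% in both replicates, and 51.0% higher. Of the FGF ligands, targets and inhibitors, 11 of 15 tested were lower in cKO, 10 of them in both replicates, with a median of -0.20. At an unadjusted p under 0.05, 4 of the 15 were lower and 0 higher, against 1.55% and 2.25% of all genes. These were the ligands Fgf10 (36.5, 27.9, 44.0 and 25.7 CPM) and Fgf8 (6.08, 1.72, 4.25 and 2.41 CPM), the target Etv4 (8.21, 2.76, 5.61 and 2.61 CPM) and the inhibitor Il17rd (37.7, 26.2, 40.6 and 34.5 CPM). In each of the 4 genes, picked by their p, both cKO libraries lay below both cHet libraries, as they did in 6.05% of all genes, and Fgf8 in cKO Rep1 rests on 5 UMIs. The anterior second heart field list, which shares Fgf8 and Fgf10 with it, had 10 of 14 lower and 3 at an unadjusted p under 0.05, the third being Tbx1. Posterior cells that also held at least 4 of the 6 anterior markers made up 20% (24 of 120), 10.2% (10 of 98), 13.8% (34 of 246) and 6.08% (16 of 263) of the population, lower in cKO in both replicates. Their part in the levels of these genes was not tested.

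In the opposite direction, 9 of 11 tested genes of atrial and venous pole muscle were higher in cKO with a median of 0.49, and 4 had an unadjusted p under 0.05, against 51.0% and 2.25% of all genes. In both replicates 4 of the 11 were higher, against 24.4% of all genes. The 4 genes under the unadjusted threshold were Ryr2, the ligand Angpt1 (51.1, 51.4, 80.3 and 143 CPM), the calcium sensor Vsnl1 (16.7, 16.2, 24.8 and 48.2 CPM) and the pacemaker channel Hcn4 (1.82, 3.10, 10.7 and 18.1 CPM). For Angpt1 and Vsnl1 the difference lay in Rep2, with within-replicate values of 0.00 and -0.05 in Rep1. The share of posterior cells with Gata4 was close in Rep1 (43.3% and 42.9%) and higher in cKO in Rep2 (48.4% and 56.7%), and Zfpm2, the gene most tied to Gata4, was at 177, 161, 185 and 398 CPM. The 12 cardiac muscle genes of the check above, which include Ryr2, summed to 251, 219, 348 and 530 CPM, lower in cKO in Rep1 and higher in Rep2. Among them Tnni1 was at 76.6, 42.7, 68.1 and 107 CPM. The part of the Gata4 share and of cells with muscle RNA in these levels was not tested. The 6 markers of the rule are given as values only, and Gata4 itself was at 73.9, 82.4, 129 and 181 CPM.

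Of 8 tested genes of the proepicardium and septum transversum, 5 were higher in cKO and 3 lower, close to the 51.0% of all genes that were higher, with a median of 0.34. In both replicates 3 were higher and 1 lower, against 24.4% and 24.0% of all genes, and 3 were higher at an unadjusted p under 0.05, against 2.25%. These 3 were the mesothelial factor Wt1 (4.26, 6.89, 3.74 and 10.0 CPM), the mesothelial Upk3b (4.26, 9.65, 6.29 and 14.7 CPM) and the guidance cue Sema3d (9.12, 16.5, 20.7 and 30.5 CPM). Each was above its own replicate's cHet library in both replicates. Of the adhesion and guidance genes, 28 of 37 were higher with a median of 0.16, 15 of them in both replicates, against 51.0% and 24.4% of all genes. At an unadjusted p under 0.05, 7 were higher, against 2.25% of all genes, among them the netrin receptor Unc5c (791, 831, 1267 and 1580 CPM) and the ephrin receptor Epha3 (19.8, 24.8, 13.4 and 27.5 CPM).

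The lists of signals known to act in the posterior field had medians closer to that of all genes. Of all genes, 51.0% were higher in cKO and 49.0% lower, with 2.25% and 1.55% at an unadjusted p under 0.05. In the retinoic acid list, 9 of 18 genes were higher and 9 lower (median 0.00). The binding protein Crabp2 (158, 192, 238 and 271 CPM) and the degrading enzyme Cyp26a1 (3.65, 9.99, 1.87 and 4.42 CPM) were higher and Rdh10, which makes the precursor, lower (32.8, 30.3, 64.4 and 44.4 CPM) at an unadjusted p under 0.05. In the hedgehog list 11 of 15 were lower with a median of -0.03, and Ptch1 (log2 fold change -0.22 ± 0.08 SE) and the coreceptor Gas1 (0.30 ± 0.12 SE) passed the unadjusted threshold in opposite directions. In the Wnt list 14 of 32 were higher (median -0.04), with Rspo3, Sfrp1 and Sfrp5 higher and Tcf7 lower at that threshold. In the BMP list 15 of 28 were higher (median 0.03), with Bmp7 lower. Of 12 Hox genes of groups 1 to 6, 7 were higher (median 0.09), with Hoxa4 and Hoxa5 higher and Hoxd1, at 3 to 15 UMIs in Rep2, lower. Of 18 genes of the KMT2D complex and related enzymes, 0 passed the unadjusted threshold, close to the 3.80% of all genes that did.

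A test of whether genotype acted differently in posterior and anterior cells called 0 of 13302 genes (0%), and 552 (4.15%) had p under 0.05 before adjustment. For Alcam the log2 fold change was larger in the posterior cells by 0.91 ± 0.12 SE, with an edgeR adjusted p of 0.0632. In the anterior cells it was at 56.9, 86.8, 80.1 and 79.9 CPM, higher in cKO in Rep1 only. For Wfdc2 the anterior levels were 8.44, 9.99, 4.80 and 7.96 CPM (difference 1.56 ± 0.30 SE, edgeR adjusted p = 0.279). In the anterior cells alone, 0 of 13424 genes passed in either direction. Under the alternatives, Alcam was among the 7 genes called with other size factors and the 70 called with genes of at least 1 count. It was not among the 10 called with at least 5 anterior markers, and 0 genes were called without the replicate block or by DESeq2.

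In the cells of each sex taken alone, the genotype comparison called other numbers of genes. Among Xist-only posterior cells 3 of 10717 genes passed (0.028%), including Alcam and Wfdc2. Among Y-only posterior cells 67 of 8898 passed (0.753%), 57 higher and 10 lower in cKO, on as few as 14 cells in cHet Rep1. Ryr2 was at 126, 226, 183 and 371 CPM in the Y-only cells (log2 fold change 0.95, edgeR adjusted p = 2.37e-08) and Smoc1 at 51.5, 12.4, 44.0 and 24.9 CPM (-1.20, edgeR adjusted p = 0.0366). Both went the same way in Xist-only cells without passing, Ryr2 at 100, 139, 220 and 297 CPM and Smoc1 at 44.0, 35.5, 52.0 and 31.0 CPM. The Gata4 share of the Y-only cells was 50% in cHet Rep1 against 55.9% in cKO Rep1 and 44.2% in cHet Rep2 against 58.5% in cKO Rep2. No test compared the effect of genotype between the sexes.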

How the data were processed

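The deposited values are raw UMI counts for each gene in each barcode, which the authors made with Cell Ranger on mm10, without ambient RNA correction or normalization. Version 7.0.1 stands in the headers of Rep1, 8.0.1 in those of Rep2, and the labels state 8.0.1 throughout. Different versions and kits coincide with the replicates. Free RNA therefore remains in all values, and low shares of cells are read against endothelial cells.

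From the deposited counts, the cells were selected as described, their UMIs summed per library, and genes tested with edgeR 4.0.16 in R 4.3.3 (quasi-likelihood test, TMM scaling, filterByExpr, replicate as a block, Benjamini-Hochberg adjusted p under 0.05). The genes of the rule entered the fit (11817 genes) but no count. The interaction was fitted on 8 sums in the same way, with library as a block. The script was tested on simulated data. Levels are CPM of the sums, and differences between cell groups add 5 CPM and carry no test. Shares were compared by exact permutation (scipy 1.17.1). The replicate numbers mark kits and pools, and deviations from the genotype means correlated at 0.730 between libraries of a replicate, which with 2 pairs is a single value. The fit of 4 libraries has 1 residual degree of freedom.

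Named genes were those called plus the smallest p among genes of at least 10 CPM whose replicates had 1 sign, to 10 per direction, and, against other cells, the 15 highest and 10 lowest by their least extreme library. A cell was called Xist-only with at least 2 Xist UMIs and no UMI of the 4 Y genes. Y-only cells had any UMI of the Y genes and fewer than 2 Xist UMIs. Cells with both had at least 2 Xist UMIs and any UMI of the Y genes. Doublets were called by the Scrublet score in scanpy 1.11.5 at the rate expected for each kit and stayed in the main results. The cells, the 30 gene lists and the tests were chosen with earlier results of these data known. Gene positions came from GENCODE on GRCm38. Alternatives covered the block, DESeq2 1.42.0, its size factors, no filter on counts beyond 1, each library left out, doublets, the number of markers, the muscle limit, hemoglobin, thinning to 10000 UMIs and, chosen after seeing the data, the sex of the cells. Of the genes these rules and lists name, 2 are not reported here.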

Additional observations from a re-analysis of the deposited data

Results flagged for a closer look

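The share of posterior second heart field cells moved in opposite directions with genotype in cells of either sex. In Xist-only cells the cKO minus cHet difference was -0.938 percentage points (-0.846 in Rep1 and -1.03 in Rep2), and in Y-only cells it was 0.730 points (0.675 and 0.786). The difference between the sexes was not tested. Each pool held 3 or 4 embryos of unrecorded sex, so the sex of a cell and the embryo it came from cannot be told apart.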

How the results depend on the processing

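Under the alternatives that kept all 4 libraries, the named genes kept their direction with 3 exceptions, all in cells of 1 sex (log2 fold change of Xist at 0.0616 in Xist-only cells, Alcam at -0.46 and Wfdc2 at -0.92 in Y-only cells). In the Y-only cells, the lower value of Alcam in Rep2 rests on 1 cell of cHet Rep2, and Wfdc2 had 7 to 20 UMIs per library. Some sizes nearly vanished, Ctnna2 going from 0.58 to 0.09 without doublets and to 0.07 with at least 5 markers, and Pcdh11x from -1.15 to -0.03 with at least 3 markers. Over the 12 other fits that kept all 4 libraries, or 11 where a gene was too low to test in 1, Alcam and Wfdc2 passed in 9, Eif2s3y and Uty in 8, Kcnh7 in 8, and Pcdh17, Ryr2 and Smoc1 in 6. The hemoglobin limit removed 0 posterior cells and is not counted among these fits.

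The numbers of calls changed more. Without the replicate block, which pairs the libraries by kit, edgeR called 0 genes higher in cKO and 0 lower, with 36 at p under 0.05 before adjustment. DESeq2 called 1 (Alcam) and 0. Leaving out 1 library, with no block and the lone library assumed to vary like the others, gave 0 to 0 genes in each direction (79 to 225 at p under 0.05 before adjustment). The value of a gene with 1 library left out is the difference within the other replicate, and its direction was fixed beforehand for genes picked for having 1 sign in both. With genes of at least 1 count 32 were higher and 13 lower, without doublets 38 and 16, with at least 3 markers 84 and 26, with at least 5 markers 5 and 2, with the muscle limit at 0.10% 24 and 11, after thinning 12 and 3, in Xist-only cells 2 and 1, in Y-only cells 57 and 10, and without cells that held both Xist and Y UMIs 8 and 1. The cause of these differences was not tested. The interaction called 7 genes with other size factors, 70 with genes of at least 1 count and 10 with at least 5 anterior markers. The share of posterior cells differed by 0.216 points over all deposited barcodes and by 0.730 in Y-only cells, against -0.444.

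Precision is limited by 2 libraries per genotype and by 98 cells in the smallest library. It is also limited by fewer than 30 UMIs for genes such as Fgf8 and Hoxd1, and in each Rep1 library for Hcn4 and Etv4.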
